A study of Mus musculus and Rattus norvegicus with 32 samples.

Results

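Transcripts of 8 ligand-activated receptors that sense lipids and foreign chemicals (Ppara, Ppard, Pparg, Rxra, Nr1i2, Nr1i3, Nr1h3 and Ahr) were followed in the liver of mice and rats given trichloroethylene (TCE), a chlorinated solvent. The genes were chosen by name, and a probe set, the group of probes that reports 1 transcript on the array, was taken when its single annotated symbol was one of these names in either species. The mouse array held all 8 genes on 11 probe sets, of 8251 named genes and 12422 probe sets. The rat array held 6 of them on 11 probe sets, of 4736 genes and 8740 probe sets. Together these are 8 of 9931 named genes, and 6 of the 8 were on both arrays. Rat Nr1i2 and Nr1i3 were not analysed here.

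Male B6C3F1 mice and male SD rats were gavaged with TCE in corn oil at 1500 mg per kg, or with corn oil alone. The single-dose groups received 1 dose at 8 weeks of age, and the repeated-dose groups received 1 dose a day for 14 days and were 10 weeks old. Livers were collected when 18 h had passed since the last dose, and polyA RNA was hybridised to Affymetrix arrays, 1 species per array design. Each species, schedule and treatment had 4 arrays, 32 in all, and the study set out to compare the 2 species.

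PPAR alpha, delta and gamma (Ppara, Ppard, Pparg) bind fatty acids and their derivatives, LXR alpha (Nr1h3) binds oxidised cholesterol, and PXR (Nr1i2) and CAR (Nr1i3) respond to drugs and bile acids. All of them bind DNA as pairs with a retinoid X receptor such as RXR alpha (Rxra), whereas the aryl hydrocarbon receptor (Ahr) is of another protein family and pairs with Arnt. In rodent liver PPAR alpha switches on fatty acid oxidation and the growth of peroxisomes, and metabolites of TCE are known activators of it. Receptors of this kind act mainly by changing shape when a ligand binds, so a receptor's targets can move with or without its own transcript.

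Each deposited value was a ratio of an array's signal to the oil median for its species and schedule, so a ratio of 1 means the oil median and no signal level was given. Whether the tissue expressed hepatocyte markers at liver levels therefore could not be read. Changes are log2 differences of the mean ratio, TCE minus oil, with the standard error (SE) of a limma fit, and a change was called at a Benjamini-Hochberg adjusted p under 0.05 over all probe sets of a species. Nothing in the labels ties each sample to an animal of its own. The p-values therefore weigh a change only against the scatter of samples within groups, which may be technical. That scatter was pooled over all groups in the fit, also those not compared, and drawn by limma toward that of other probe sets. Counts at an unadjusted limma p under 0.05 are given without the share of all probe sets or genes at that level. They therefore cannot be read as an excess in a list. Precision was limited by 4 arrays a group. In whole liver, fewer cells of a type and less RNA per cell cannot be told apart. The log2 ratio of the Gapdh control at its 3' end minus that at its 5' end, a measure of shortened RNA, was above 1 on 10 of 32 arrays. These were TCE arrays 1, 3 and 4 and no oil array in single-dose mice, TCE arrays 2, 3 and 4 and oil array 1 in repeated-dose mice, TCE array 4 in single-dose rats and TCE arrays 3 and 4 in repeated-dose rats. Each called receptor change is also given with this value as a covariate. Changes of single genes from the target, partner and marker lists are given only without this covariate. Without a call, the sign turned with that covariate for single-dose mouse Ppard (0.49), Nr1h3 (0.33), Ahr (-0.42) and the _at and _r_at probe sets of Nr1i3 (0.07 and 0.14), among others. Exocrine pancreas markers, of which 5 of 12 were measured in mice and 9 in rats, also set arrays apart. Their mean log2 ratio was 3.02, 3.23 and 4.07 on single-dose mouse oil array 3 and TCE arrays 3 and 4, 2.31 on repeated-dose mouse TCE array 1, and 5.35 on single-dose rat oil array 3, against -1.39 to 0.48 on the others. None of these markers passed in any comparison (0 at an unadjusted p under 0.05 by limma). Each called receptor change is given without those 5 arrays too, a setting chosen after seeing the data. The median of all probe sets differed from 0 by -0.09 and -0.15 in single-dose and repeated-dose mice and by 0.14 and 0.04 in the corresponding rats.

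Few of the receptors' transcripts passed the test. In single-dose mice 3 of 11 receptor probe sets were called (Ppara higher, Nr1i2 and 1 Rxra probe set lower), where 8.3% of all probe sets were called in either direction. In repeated-dose mice 1 of 11 was called, the other Rxra probe set, at a background of 10.7%. No receptor probe set was called in single-dose rats (smallest limma adjusted p = 0.0745, with 3 of 11 at an unadjusted p under 0.05), where the background was 1.72%, and 1 of 11, Pparg, was called in repeated-dose rats at a background of 2.81%. The median receptor change was -0.10 and -0.46 in mice and 0.10 and 0.00 in rats, after a single dose and repeated doses. The share called was thus 27.3% of the receptor probe sets in single-dose mice, above the background, and 9.09% in repeated-dose mice, near it.

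**Figure D1:**
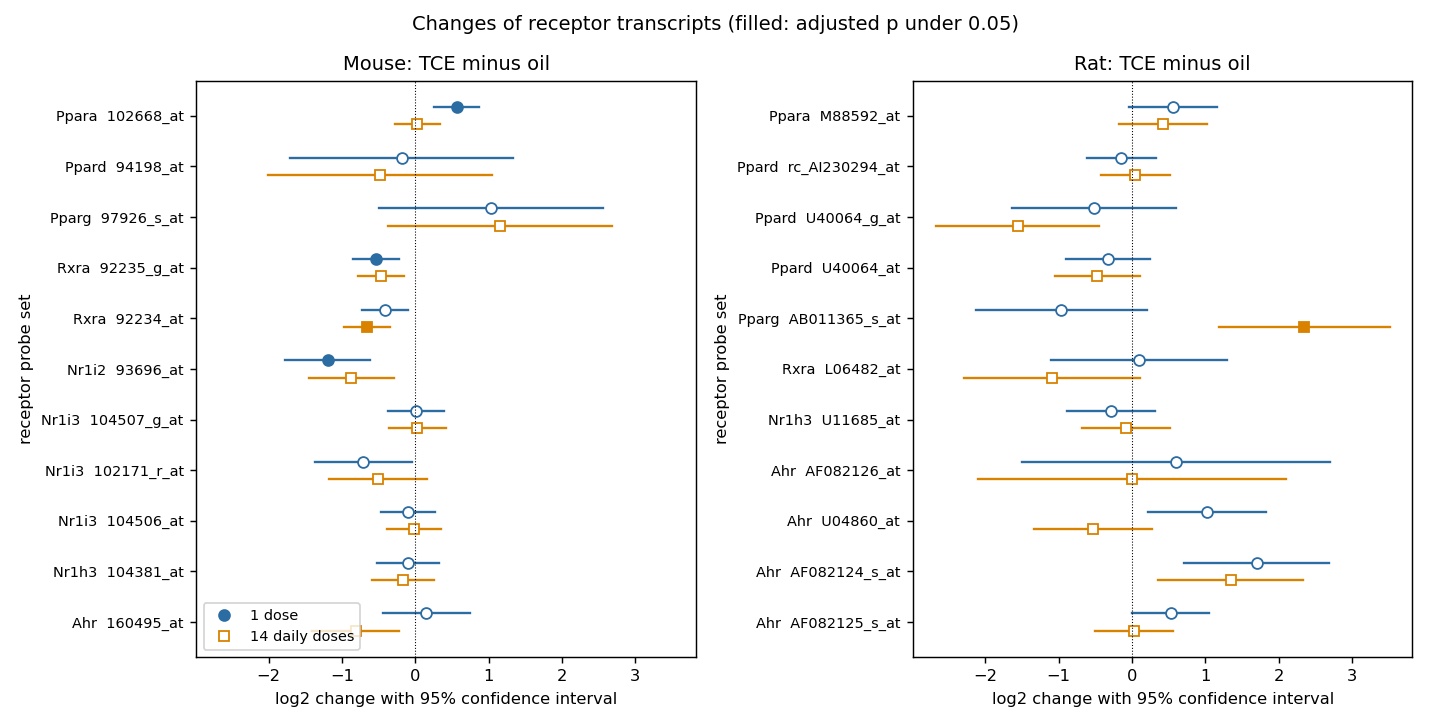
Log2 change of each receptor probe set, TCE minus oil, with its 95% confidence interval (x axis) for mouse (left) and rat (right), circles for a single dose and squares for 14 daily doses, n = 4 arrays in each group. Filled symbols had a limma adjusted p under 0.05: Ppara at 0.56, Nr1i2 at -1.19 and the 2 Rxra probe sets at -0.54 and -0.66 in mouse, and Pparg at 2.35 in rat.

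Ppara, the receptor for fatty acids and fibrates, rose in mouse liver after a single dose and was near the oil level after 14. Its ratios were 1.01, 0.826, 1.03 and 0.986 on the single-dose oil arrays and 1.45, 1.61, 1.23 and 1.42 on the TCE arrays. All 4 TCE arrays lay above all 4 oil arrays, which was true in one direction or the other for 5 of 11 receptor probe sets and 17.6% of all probe sets in this comparison. The change was 0.56 ± 0.14 (log2 ± SE, n = 4 and 4), a fold of 1.48 with a 95% confidence interval of 1.20 to 1.83 and a limma adjusted p of 0.0271.

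After repeated doses the Ppara ratios were 1.003, 0.997, 0.962 and 1.07 on oil and 0.815, 1.07, 1.14 and 1.10 on TCE. These groups overlapped, and the change was 0.02 ± 0.14 with an interval of -0.28 to 0.33 (limma adjusted p = 0.935). The repeated-dose effect minus the single-dose effect was -0.54 ± 0.20 (95% confidence interval -0.97 to -0.11), with an unadjusted limma p of 0.0182 and an adjusted p of 0.168, so the difference between schedules did not pass the test. The highest single-dose ratio, 1.61, was on TCE array 2, the one TCE array of that group whose Gapdh value was below 1.

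The single-dose Ppara call was lost with quantile normalization (0.54, adjusted p = 0.195), with the Gapdh value as a covariate (0.51, adjusted p = 0.177), without the arrays above 1 (0.74, adjusted p = 0.221), without the arrays with high pancreas markers (0.70, adjusted p = 0.0806) and when only the 8 arrays compared were fitted (adjusted p = 0.0689). It was also lost without oil array 2, 3 or 4 or TCE array 1, 2 or 4, with changes of 0.49 to 0.60 and adjusted p of 0.0503 to 0.0790.

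The promoter of Ppara is shown because this was the one receptor whose transcript rose in mouse liver. It is RefSeq sequence of the mouse build GRCm38.p6, 250 bases before to 50 after the annotated start, chr15:85735526-85735825 on the plus strand, written 5′ to 3′, and capitals mark the core GCGTG of the dioxin response element, here on the opposite strand.
Ppara promoter: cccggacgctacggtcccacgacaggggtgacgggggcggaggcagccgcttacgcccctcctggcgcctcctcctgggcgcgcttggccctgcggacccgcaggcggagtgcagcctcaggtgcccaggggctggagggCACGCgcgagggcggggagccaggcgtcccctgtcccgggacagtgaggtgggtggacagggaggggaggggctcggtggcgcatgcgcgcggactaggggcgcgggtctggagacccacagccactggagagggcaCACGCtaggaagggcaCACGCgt
The matches began 110 bases before and 28 and 44 bases after the start. Among 32851 mouse promoters of the same length 32.4% hold GCGTG on either strand. The core AGGTCA, bound by most nuclear receptors, did not occur in this window on either strand. RefSeq entries were found for 7 of the 8 genes (11 promoters), all but Ahr.

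In rat liver Ppara was higher on most TCE arrays than on most oil arrays, and neither change passed the test. Its single-dose ratios (M88592_at) were 0.745, 1.04, 1.69 and 0.956 on oil and 1.75, 1.64, 1.76 and 1.18 on TCE. After repeated doses they were 1.10, 0.902, 1.81 and 0.829 on oil and 1.79, 1.29, 1.48 and 1.42 on TCE. Oil array 3 of each schedule was high and made the groups overlap. The changes were 0.56 ± 0.28 (adjusted p = 0.287) and 0.42 ± 0.28 (adjusted p = 0.437), with intervals of -0.03 to 1.16 and -0.17 to 1.02. Single-dose oil array 3 was the rat array with high pancreas markers. Without it the single-dose change was 0.79 (adjusted p = 0.114). The mouse effect minus the rat effect was 0.00 ± 0.31 after a single dose (95% confidence interval -0.63 to 0.63, limma adjusted p = 0.997) and -0.40 ± 0.31 after repeated doses (interval -1.03 to 0.23, adjusted p = 0.427).

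**Figure D2:**
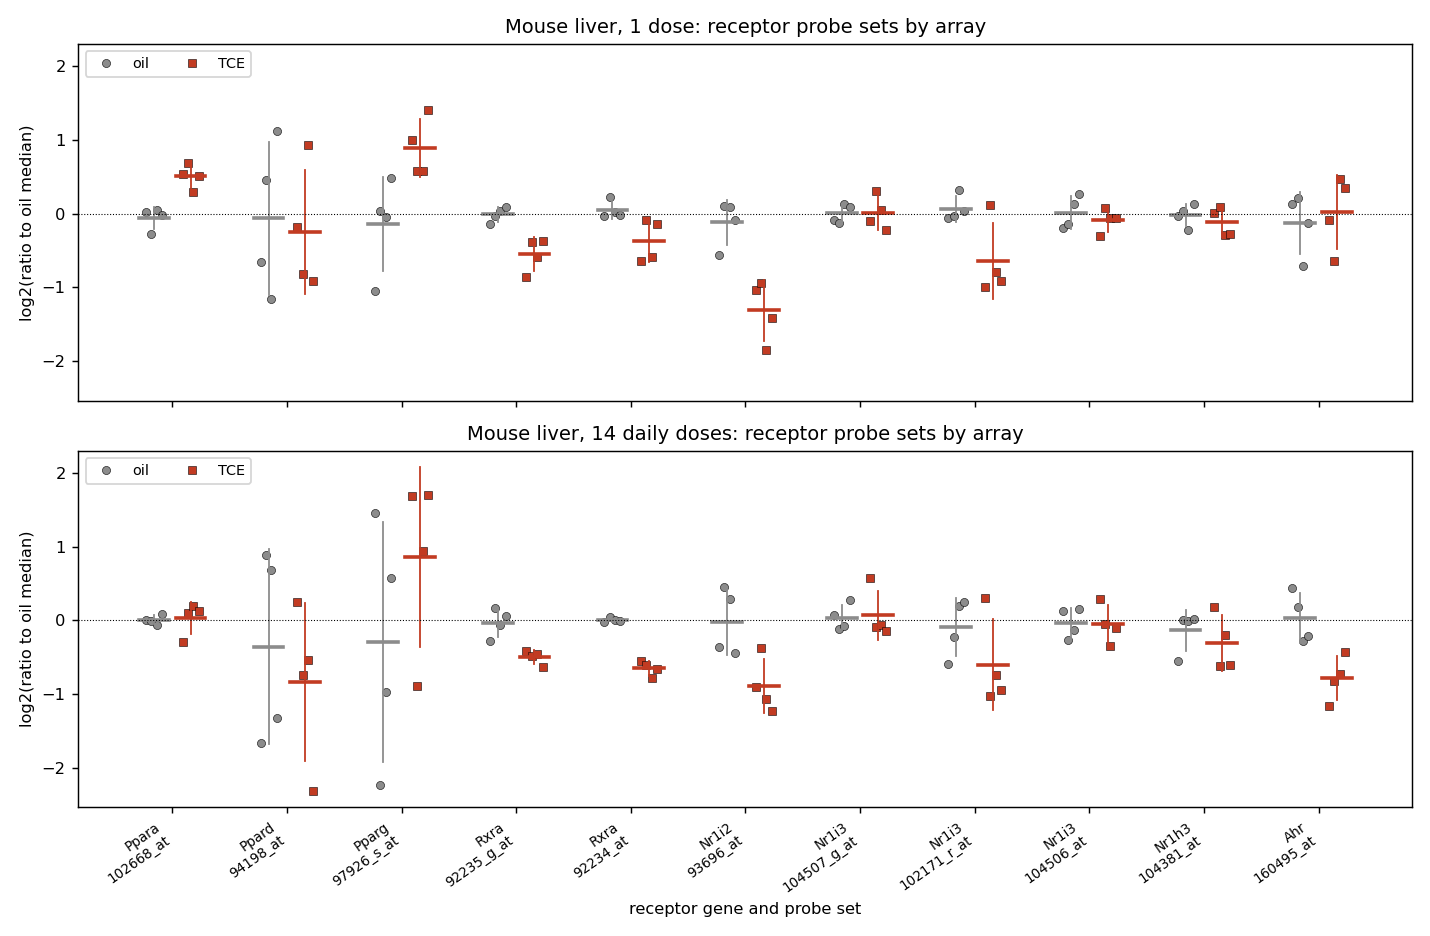
Log2 of the ratio to the oil median (y axis) for the 11 mouse receptor probe sets (x axis) after 1 dose (top) and 14 daily doses (bottom), circles for the 4 oil arrays and squares for the 4 TCE arrays of a group, with the mean (bar) and 1 SD (line). Nr1i2 and Rxra TCE arrays lie low after 1 dose while Ppara TCE arrays lie high, and Ppard and Pparg spread most widely.

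Known targets of PPAR alpha rose in mice on both schedules and in rats after repeated doses. A list of 48 such genes had 31 members on each array, each counted by its least variable probe set within groups. Like the other lists, it was chosen with earlier results of these data known, so its counts are a description. In single-dose mice 14 of 31 rose and 0 fell (of all 8250 genes 9.31% were called and 4.74% rose), with a median change of 0.45 where the median of all genes was -0.08. In repeated-dose mice 12 rose and 0 fell (of all genes 11.8% were called and 2.39% rose), with a median of 0.40 against -0.16. Cyp4a14, a fatty acid omega-hydroxylase, stood at ratios of 15.7 to 21.4 on single-dose TCE arrays and 33.3 to 54.3 on repeated-dose TCE arrays. Ehhadh, the peroxisomal bifunctional enzyme, stood at 3.36 to 5.78 and 4.78 to 5.83. So in repeated-dose mice these targets were raised while the Ppara ratio was 0.815 to 1.14. Other genes often used as PPAR alpha targets did not pass in single-dose mice: Pdk4, which curbs glucose oxidation, changed by 0.16 ± 0.27 (adjusted p = 0.765) and Angptl4, a lipase inhibitor, by 0.45 ± 0.25 (adjusted p = 0.29).

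In rats 0 of 31 PPAR alpha targets passed after a single dose (smallest limma adjusted p = 0.0608, 5 of 31 at an unadjusted p under 0.05, of all genes 1.69% were called and 1.16% rose), with a median of 0.15 against 0.12 for all genes. After repeated doses 11 rose and 2 fell (of all genes 2.96% were called and 2.32% rose), with a median of 0.71 against 0.04. Acaa1b, a peroxisomal thiolase, rose by 3.37 ± 0.30 (TCE ratios 6.96 to 13.8, adjusted p = 3.48e-05) and Pex11a, which divides peroxisomes, by 1.88 ± 0.20 (adjusted p = 0.00023). Me1, malic enzyme, rose by 2.77 ± 0.34 (adjusted p = 0.000685). Apoa4, an apolipoprotein, and Cyp4a8, an omega-hydroxylase, were the 2 that fell, by 1.52 and 1.06. In single-dose mice Apoa4 rose by 2.06 ± 0.30 (adjusted p = 0.00164). Both species and schedule differ between these Apoa4 values, and no test of their difference is given. Without oil array 1, oil array 4 or TCE array 2 the repeated-dose count in rats was 7 in place of 13, and with the Gapdh covariate it was 6. Without the arrays of Gapdh above 1, which are 3 of the 4 TCE arrays of each mouse schedule, 2 and 5 calls were left in mice, and without the arrays with high pancreas markers 6 and 11. Quantile normalization left 6 and 5 calls in mice after a single dose and repeated doses and 1 in repeated-dose rats.

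**Figure D3:**
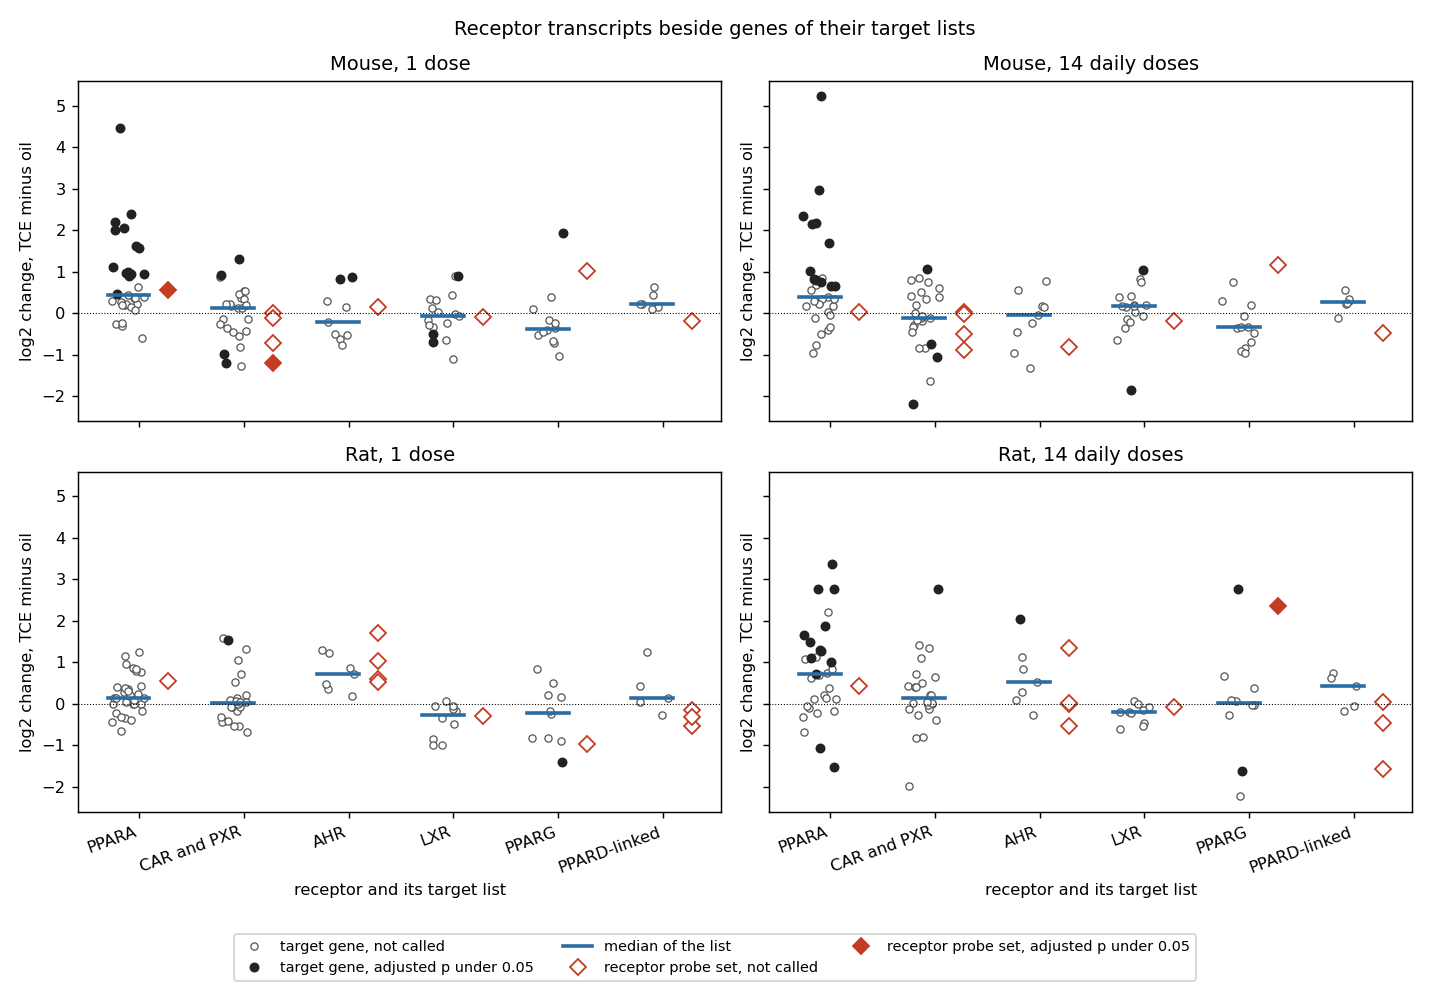
Log2 change, TCE minus oil (y axis), of the genes on each receptor's target list (circles, filled at a limma adjusted p under 0.05, with the list median as a bar) beside the receptor's own probe sets (diamonds), in the 4 comparisons of n = 4 and 4 arrays. PPAR alpha targets reach 4.46 and 5.22 in mouse and 3.37 in repeated-dose rat, while the Ppara diamonds lie between 0.02 and 0.56.

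Rxra, the shared partner of the nuclear receptors, was lower in mouse liver on both schedules and on both of its probe sets, of which 1 passed on each schedule. Where a gene had several probe sets on the mouse array they are told apart by the ending of their Affymetrix name. On single-dose arrays the ratios of the Rxra probe set ending in _g_at were 0.905, 0.975, 1.03 and 1.07 with oil and 0.551, 0.765, 0.666 and 0.774 with TCE. The change was -0.54 ± 0.15, a fold of 0.689 (95% confidence interval 0.554 to 0.856, limma adjusted p = 0.0379). On repeated-dose arrays the same probe set stood at 0.821, 1.13, 0.959 and 1.04 with oil and 0.753, 0.717, 0.731 and 0.644 with TCE, a change of -0.46 ± 0.15 that missed the threshold (adjusted p = 0.0559). In both schedules all TCE arrays lay below all oil arrays.

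The Rxra probe set ending in _at stood at 0.980, 1.17, 1.01 and 0.990 on single-dose oil arrays and 0.639, 0.940, 0.664 and 0.907 on TCE arrays (-0.42 ± 0.15, adjusted p = 0.096). On repeated-dose arrays it stood at 0.983, 1.04, 1.01 and 0.992 with oil and 0.685, 0.656, 0.580 and 0.633 with TCE. Here too no TCE array reached an oil array, and the repeated-dose change was -0.66 ± 0.15, a fold of 0.635 (interval 0.510 to 0.789, limma adjusted p = 0.0141). The probe sets followed each other over the 16 mouse arrays with a Pearson r of 0.84, a description since they report the same transcript on the same arrays. The repeated-dose effect minus the single-dose effect was 0.07 ± 0.21 (interval -0.37 to 0.52, adjusted p = 0.884) on the _g_at probe set and -0.24 ± 0.21 (interval -0.69 to 0.20, adjusted p = 0.571) on the other, neither past the threshold.

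The repeated-dose call on the _at probe set held whichever 1 array was left out (adjusted p 0.0122 to 0.0412), with the Gapdh covariate (-0.59) and without the arrays with high pancreas markers (-0.69, adjusted p = 0.0380), but not after centring each array on its median (-0.50, adjusted p = 0.0583), with quantile normalization (-0.37, adjusted p = 0.490), with only the 8 arrays compared (adjusted p = 0.0520) or without the arrays of Gapdh above 1 (-0.56, adjusted p = 0.254). The single-dose call on the _g_at probe set was lost with centring (-0.44, adjusted p = 0.0789), quantile normalization (-0.34, adjusted p = 0.522), the 8 arrays compared alone (adjusted p = 0.0892), the Gapdh covariate (-0.35, adjusted p = 0.329), without the arrays of Gapdh above 1 (-0.37, adjusted p = 0.518), without the arrays with high pancreas markers (-0.59, adjusted p = 0.207), and without any 1 oil array or TCE array 1 or 3 (-0.58 to -0.43, adjusted p 0.0503 to 0.119).

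The annotation gives mouse Rxra more than 1 start, and the promoter printed is the one holding the nuclear receptor core, shown for that reason. It lies at chr2:27709042-27709341 on the plus strand of GRCm38.p6 (RefSeq, 250 bases before to 50 after the start), with AGGTCA or its reverse complement in capitals.
Rxra promoter, downstream start: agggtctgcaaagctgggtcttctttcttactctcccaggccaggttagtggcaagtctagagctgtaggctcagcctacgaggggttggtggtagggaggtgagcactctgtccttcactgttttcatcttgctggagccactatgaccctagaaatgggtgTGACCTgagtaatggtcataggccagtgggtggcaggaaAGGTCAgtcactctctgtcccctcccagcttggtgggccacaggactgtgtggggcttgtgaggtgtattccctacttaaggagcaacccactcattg
The matches began 87 bases before the start on the opposite strand and 48 bases before it on the same strand. AGGTCA occurs on either strand in 16.3% of the 32851 mouse promoters. The window at the upstream start (chr2:27676951-27677250) held neither AGGTCA nor GCGTG. The paired form AGGTCANAGGTCA, to which PPAR and RXR pairs bind, was found in none of the 11 receptor promoters and in 13 of all 32851. Which start the arrays report was not examined.

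Rat Rxra (L06482_at) varied too much to place. Its single-dose ratios were 1.07, 0.929, 1.16 and 0.60 on oil and 0.959, 1.19, 1.24 and 0.641 on TCE, a change of 0.10 ± 0.56. After repeated doses they were 0.826, 1.58, 1.17 and 0.820 on oil and 0.669, 1.002, 0.104 and 0.878 on TCE, a change of -1.09 ± 0.56 (interval -2.28 to 0.11, adjusted p = 0.305). One array, repeated-dose TCE 3, stood far below the rest, and its Gapdh value was above 1. Without it the change was -0.34 (adjusted p = 0.610). The mouse effect minus the rat effect was -0.64 ± 0.59 (adjusted p = 0.574) and 0.62 ± 0.59 (adjusted p = 0.534) on the 2 schedules.

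Partners and coregulators beside Rxra were called in both directions in mice. Of 31 listed genes 23 were measured. After a single dose 3 rose and 2 fell (21.7% of the list where 9.31% of all genes were called), and after repeated doses 1 rose and 2 fell, 13.0% of the list and near the 11.8% of all genes. Hsp90aa1, the chaperone that holds unliganded receptors, rose by 1.99 ± 0.26 (adjusted p = 0.000682), Nrip1, a corepressor, by 1.04 ± 0.18 (adjusted p = 0.0039) and Carm1, a coactivator methyltransferase, by 0.98. Arnt, the partner of Ahr, fell by 1.04 ± 0.19 (TCE ratios 0.391 to 0.550, adjusted p = 0.00538), and Nr0b2, the repressor SHP, by 1.08 ± 0.29 (adjusted p = 0.033). After repeated doses Nrip1 rose by 0.97 ± 0.18 (adjusted p = 0.00574), while Crebbp, a histone acetyltransferase, fell by 1.13 ± 0.31 (adjusted p = 0.0331) and Med1, the Mediator subunit that contacts nuclear receptors, fell by 0.69 ± 0.13 (adjusted p = 0.0072), with a list median of -0.46 against -0.16 for all genes. Rxrb and Rxrg, the other retinoid X receptors, did not pass (Rxrg -1.40 ± 0.44, adjusted p = 0.056, after repeated doses). In rats 9 were measured and none passed on either schedule (smallest limma adjusted p = 0.0882 and 0.155, with 1 and 3 of 9 at an unadjusted p under 0.05).

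**Figure D4:**
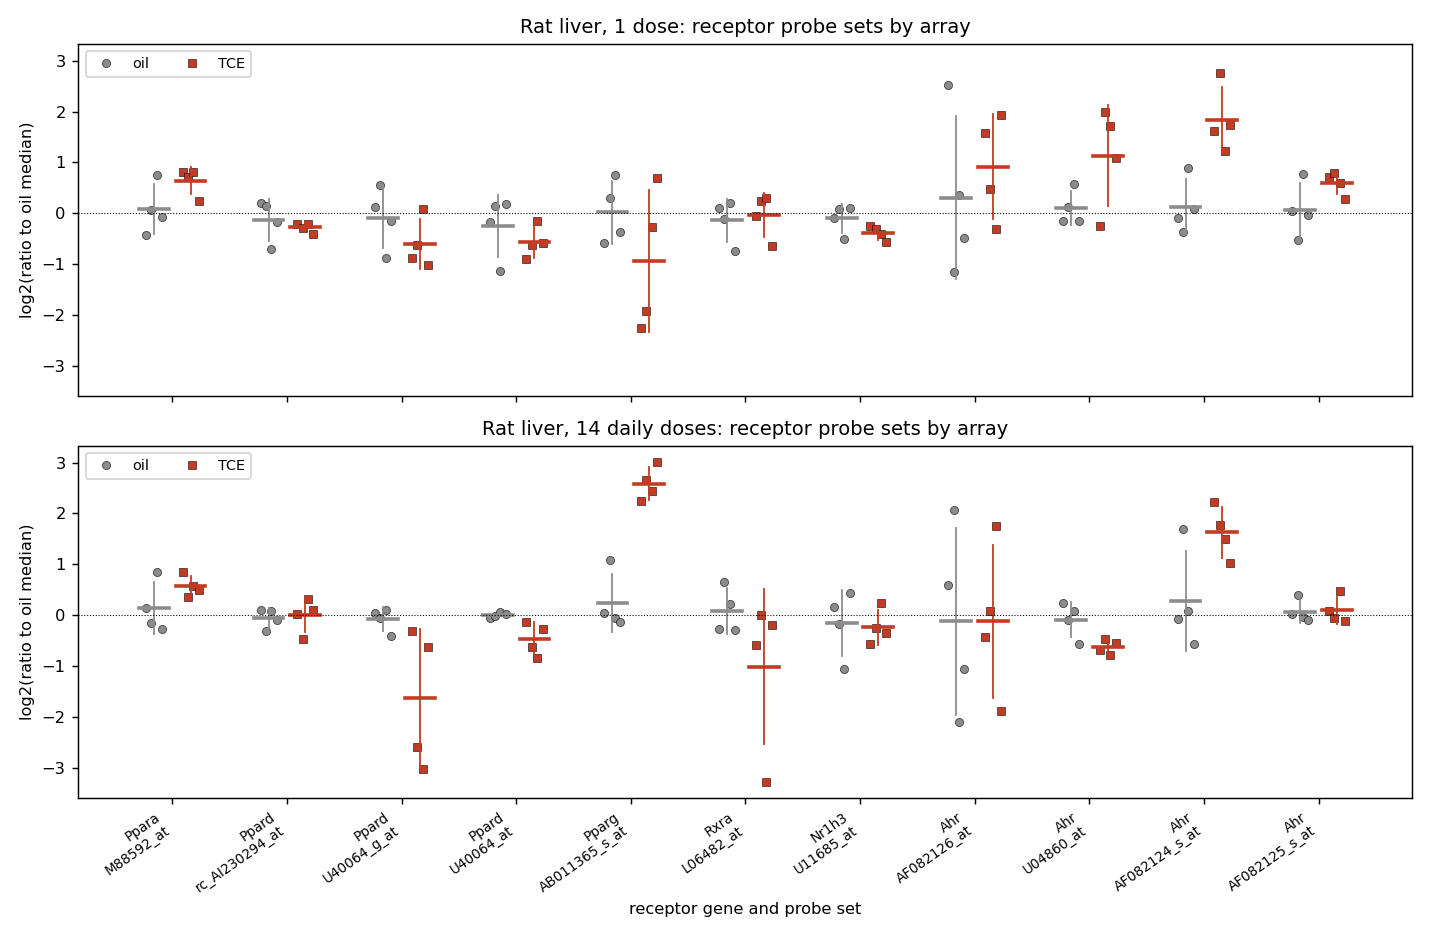
Log2 of the ratio to the oil median (y axis) for the 11 rat receptor probe sets (x axis) after 1 dose (top) and 14 daily doses (bottom), drawn as in the mouse plot with 4 arrays a group. The 4 repeated-dose Pparg TCE arrays lie above every oil array, and the 4 Ahr probe sets do not move alike.

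Nr1i2, which encodes PXR, the receptor for many drugs and steroids, had the largest called change among mouse receptors. Its ratios were 0.679, 1.07, 1.06 and 0.939 on single-dose oil arrays and 0.487, 0.521, 0.278 and 0.376 on TCE arrays. No TCE array reached the lowest oil array. The change was -1.19 ± 0.27, a fold of 0.438 (95% confidence interval 0.293 to 0.654, limma adjusted p = 0.0163). After repeated doses the ratios were 0.780, 1.37, 1.22 and 0.734 on oil and 0.536, 0.771, 0.479 and 0.428 on TCE. TCE array 2 reached into the oil range, and the change of -0.87 ± 0.27 (fold 0.546, interval 0.365 to 0.816) missed the threshold at an adjusted p of 0.0529. The schedules differed by 0.32 ± 0.38 (adjusted p = 0.698).

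The highest single-dose Nr1i2 TCE ratio, 0.521, was on array 2, the one TCE array with a Gapdh value below 1. With the Gapdh covariate the change was -0.98 (adjusted p = 0.182), without the arrays above 1 it was -0.82 (adjusted p = 0.460), without the arrays with high pancreas markers -0.80 (adjusted p = 0.307) and with quantile normalization -0.84 (adjusted p = 0.359). The call was lost at adjusted p of 0.0513 without oil array 3 (-1.12) and 0.050 without TCE array 3 (-1.01). The repeated-dose change, in turn, was called with array weights (adjusted p = 0.0422), without the noisiest 40% of probe sets (adjusted p = 0.0178), and without repeated-dose oil array 1 (-0.99, adjusted p = 0.0474) or TCE array 2 (-1.05, adjusted p = 0.0449). It was smaller with quantile normalization (-0.57, adjusted p = 0.609), centring (-0.72, adjusted p = 0.121) and the Gapdh covariate (-0.77, adjusted p = 0.102).

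The promoter of Nr1i2 is shown as that of the receptor that fell most. It is RefSeq sequence of GRCm38.p6, chr16:38294775-38295074 on the minus strand, 250 bases before to 50 after the start.
Nr1i2 promoter: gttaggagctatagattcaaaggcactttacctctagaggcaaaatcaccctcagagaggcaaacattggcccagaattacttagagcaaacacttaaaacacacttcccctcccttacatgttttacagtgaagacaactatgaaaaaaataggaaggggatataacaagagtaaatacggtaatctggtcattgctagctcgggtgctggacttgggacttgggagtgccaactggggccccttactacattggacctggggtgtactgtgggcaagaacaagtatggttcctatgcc
It holds neither AGGTCA nor GCGTG on either strand, so no base is in capitals.

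Nr1i3, which encodes CAR, the receptor behind the phenobarbital response, did not pass the test on any probe set, and its values lay near those of oil on the 2 with the smaller spread. On the one ending in _at the single-dose ratios were 0.871, 0.904, 1.10 and 1.20 with oil and 0.807, 1.06, 0.956 and 0.962 with TCE, a change of -0.10 ± 0.17 whose interval ran from -0.47 to 0.27 (adjusted p = 0.78). After repeated doses they were 1.09, 0.832, 0.912 and 1.11 with oil and 1.23, 0.966, 0.787 and 0.933 with TCE (-0.02 ± 0.17, interval -0.39 to 0.35, adjusted p = 0.952). The groups overlapped in both. The one ending in _g_at gave 0.01 ± 0.18 and 0.03 ± 0.18 (intervals -0.38 to 0.39 and -0.36 to 0.41).

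The third Nr1i3 probe set, ending in _r_at, was lower on part of the TCE arrays. With oil it stood at 0.961, 0.973, 1.25 and 1.03 after a single dose, and with TCE at 0.503, 1.08, 0.579 and 0.532. After repeated doses it stood at 0.663, 0.859, 1.14 and 1.19 with oil and 1.23, 0.493, 0.601 and 0.522 with TCE. The low arrays were TCE 1, 3 and 4 after a single dose and TCE 2, 3 and 4 after repeated doses, which were the TCE arrays with a Gapdh value above 1. The changes were -0.71 ± 0.31 (adjusted p = 0.177) and -0.51 ± 0.31 (adjusted p = 0.316), and 0.14 (adjusted p = 0.744) and -0.08 (adjusted p = 0.770) with the Gapdh covariate. Its Pearson r with the other probe sets over 16 arrays was 0.61 and 0.51, and theirs with each other was 0.75.

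Targets of CAR and PXR moved both ways in mice. Of 52 listed genes 25 were on the mouse array. After a single dose 2 rose and 2 fell (16% of the list where 9.31% of all genes were called, median 0.13 against -0.08), and after repeated doses 1 rose and 3 fell (16% where 11.8% of all genes were called, median -0.10 against -0.16). Cyp2b10, the classic CAR target, rose by 1.31 ± 0.21 (TCE ratios 1.94 to 3.36, limma adjusted p = 0.00276) and 1.08 ± 0.21 (1.86 to 2.71, adjusted p = 0.00731). Gstm3, a glutathione transferase, rose by 0.92 ± 0.20 (adjusted p = 0.0125) after a single dose. Papss2, which makes the sulfate donor, fell by 1.20 ± 0.23 (adjusted p = 0.00672) and 1.05 ± 0.23 (adjusted p = 0.0119). Among those that fell were Cyp3a genes, the classic PXR targets. Cyp3a25 fell by 0.98 ± 0.28 (adjusted p = 0.0448) after a single dose, and Cyp3a11 by 0.74 ± 0.19 (adjusted p = 0.0255) and Cyp3a16 by 2.19 ± 0.44 (adjusted p = 0.00867) after repeated doses. Probes for these closely related Cyp3a genes can bind each other's transcripts. In rats 24 were measured and 1 passed on each schedule (4.17% of the list, where 1.69% and 2.96% of all genes were called). It was Aldh1a1, a retinal dehydrogenase, which rose by 1.55 ± 0.28 (adjusted p = 0.019) and 2.78 ± 0.28 (adjusted p = 0.000186).

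Nr1h3, which encodes LXR alpha, did not pass in any comparison. In mice the single-dose ratios were 0.978, 1.02, 0.855 and 1.09 with oil and 1.01, 1.06, 0.814 and 0.825 with TCE. The changes were -0.10 ± 0.20 (interval -0.52 to 0.33, adjusted p = 0.819) and -0.17 ± 0.20 (interval -0.60 to 0.25, adjusted p = 0.617). In rats (U11685_at) the single-dose ratios were 0.939, 1.06, 0.709 and 1.08 with oil and 0.838, 0.805, 0.753 and 0.678 with TCE, and the changes were -0.29 ± 0.28 (interval -0.89 to 0.31) and -0.08 ± 0.28 (interval -0.68 to 0.52). The groups overlapped in all 4 comparisons.

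Of 24 listed LXR targets 17 were measured in mice and 10 in rats. In mice 3 and 2 of 17 were called on the 2 schedules (17.6% and 11.8% of the list, where 9.31% and 11.8% of all genes were). After a single dose Lpcat3, a phospholipid acyltransferase, rose by 0.90 ± 0.15 (adjusted p = 0.00403), while Apoc2 fell by 0.49 ± 0.13 (adjusted p = 0.0375) and Elovl5, a fatty acid elongase, by 0.69 ± 0.19 (adjusted p = 0.0407). After repeated doses Elovl6, also an elongase, rose by 1.05 ± 0.28 (adjusted p = 0.028) and Cyp7a1, the first enzyme on the way from cholesterol to bile acids, fell by 1.85 ± 0.39 (TCE ratios 0.275 to 0.372, adjusted p = 0.0108). Abca1, a cholesterol exporter and direct LXR target, changed by -0.03 ± 0.21 (adjusted p = 0.964) and -0.64 ± 0.21 (adjusted p = 0.062). In rats none of 10 passed on either schedule (smallest limma adjusted p = 0.243 and 0.484, with 1 and 0 of 10 at an unadjusted p under 0.05), with medians of -0.26 and -0.20 against 0.12 and 0.04 for all genes.

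Ahr, the receptor for dioxins, showed no called change, and 1 probe set in each species stood apart from oil on 1 schedule. In mice the repeated-dose ratios were 1.36, 1.13, 0.823 and 0.867 with oil and 0.448, 0.567, 0.607 and 0.742 with TCE. All TCE arrays lay below all oil arrays. The groups did not overlap, in one direction or the other, for 3 of 11 receptor probe sets and 17% of all probe sets of that comparison. The change of -0.82 ± 0.28 (fold 0.568, interval 0.377 to 0.856) had a limma adjusted p of 0.0715, and it was called with the Gapdh covariate (-1.10, adjusted p = 0.00885) and without the noisiest 40% of probe sets (adjusted p = 0.0269). It was -0.46 (adjusted p = 0.673) with quantile normalization, -0.66 (adjusted p = 0.144) after centring and -1.06 (adjusted p = 0.259) without the arrays of Gapdh above 1. After a single dose the ratios were 1.09, 1.16, 0.610 and 0.911 with oil and 0.943, 0.642, 1.38 and 1.27 with TCE, overlapping groups with a change of 0.15 ± 0.28 (adjusted p = 0.798). The single-dose sign turned with the Gapdh covariate (-0.42, adjusted p = 0.480), without the arrays above 1 (-0.51) and without those with high pancreas markers (-0.43). The schedules differed by -0.96 ± 0.39 (adjusted p = 0.197).

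Rat Ahr had 4 probe sets that gave different answers. On AF082124_s_at the single-dose ratios were 0.945, 0.778, 1.86 and 1.06 with oil and 3.06, 6.77, 2.33 and 3.35 with TCE. All 4 TCE arrays lay above the oil arrays (1 of 11 receptor probe sets and 12.5% of all probe sets did not overlap), and the change was 1.70 ± 0.46, a fold of 3.25 (interval 1.64 to 6.45) with a limma adjusted p of 0.0745. After repeated doses the same probe set stood at 0.945, 3.24, 1.06 and 0.676 with oil and 4.66, 3.43, 2.83 and 2.03 with TCE. Oil array 2 overlapped TCE there, and the change was 1.35 ± 0.46 (fold 2.55, adjusted p = 0.122). The single-dose change was called with array weights (1.80, adjusted p = 0.0356) and with the Gapdh covariate (1.83, adjusted p = 0.0446), and the repeated-dose change without oil array 2 (1.82, adjusted p = 0.0229).

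The other rat Ahr probe sets were less apart from oil. U04860_at stood at 0.907, 1.09, 1.49 and 0.902 with oil and 0.844, 3.95, 3.27 and 2.13 with TCE after a single dose (1.03 ± 0.38, adjusted p = 0.158), and without TCE array 1 the change was called (1.49, adjusted p = 0.0413). After repeated doses its TCE ratios were 0.625, 0.726, 0.585 and 0.683 against 1.18, 0.939, 1.06 and 0.678 with oil (-0.53 ± 0.38, adjusted p = 0.475). The 2 schedules thus had opposite signs on this probe set, and their difference was -1.56 ± 0.53 with an adjusted p of 0.437. AF082125_s_at changed by 0.53 ± 0.25 (adjusted p = 0.257) and 0.03 ± 0.25, and AF082126_at, whose within-group SD was 1.52, by 0.61 ± 0.98 and 0.00 ± 0.98. Pearson r between these probe sets over 16 arrays ran from 0.09 to 0.63.

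Genes known as Ahr targets had 9 of 12 members on the mouse array and 7 on the rat array. In single-dose mice 2 of 9 rose (22.2% where 9.31% of all genes were called), Ugdh, which makes UDP-glucuronate, by 0.82 ± 0.16 (adjusted p = 0.0086) and Nfe2l2, the NRF2 factor, by 0.87 ± 0.20 (adjusted p = 0.0176). Of the 9 genes 5 were below 0 there, and the list median was -0.20 against -0.08 for all genes. In repeated-dose mice none passed (smallest limma adjusted p = 0.0706, 3 of 9 at an unadjusted p under 0.05), and Cyp1b1, a cytochrome P450 that answers dioxins, changed by -1.31 ± 0.55 (adjusted p = 0.137). In rats all 7 were above 0 after a single dose with a median of 0.71 against 0.12 for all genes, but none passed (smallest limma adjusted p = 0.0673, 4 of 7 at an unadjusted p under 0.05). After repeated doses 1 of 7 passed (14.3% where 2.96% of all genes were called). Nqo1, a quinone reductase shared by Ahr and NRF2, rose by 2.04 ± 0.47 (TCE ratios 2.48 to 5.74, adjusted p = 0.0324).

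Pparg, the regulator of fat storage whose main site is adipose tissue, rose in rat liver after repeated doses. On AB011365_s_at the repeated-dose ratios were 1.04, 2.11, 0.963 and 0.917 with oil and 4.73, 6.31, 5.40 and 8.08 with TCE. Every TCE array lay well above the highest oil array, and in this comparison 2 of 11 receptor probe sets and 12.3% of all probe sets did not overlap. The change was 2.35 ± 0.55, a fold of 5.10 (95% confidence interval 2.27 to 11.4, limma adjusted p = 0.0339). After a single dose the ratios were 0.667, 1.23, 1.69 and 0.772 with oil and 0.209, 0.263, 0.833 and 1.61 with TCE. Those groups overlapped and the change was -0.96 ± 0.55 (interval -2.13 to 0.20, adjusted p = 0.354). The schedules differed by 3.31 ± 0.77 (interval 1.66 to 4.96), with an unadjusted limma p of 0.000681 and an adjusted p of 0.329, in a comparison where 0 of 8740 rat probe sets passed.

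The Pparg call was lost with quantile normalization (1.87, adjusted p = 0.312), with the Gapdh covariate (1.67, adjusted p = 0.197) and without the 3 rat arrays of Gapdh above 1, which are TCE arrays 3 and 4 of this group and TCE array 4 of the single-dose group (2.21, adjusted p = 0.0809). It held without the array with high pancreas markers (2.35, adjusted p = 0.0359). It was also lost without oil array 1, 3 or 4 or TCE array 1, 2 or 4 (2.21 to 2.46, adjusted p 0.0547 to 0.0920), and the probe set was among the noisiest 40%. Adipocyte markers, of which 4 of 6 were measured (Lep, Fabp4, Plin1 and Cfd), changed by -0.31 to 0.67 in the same rats and none passed (smallest limma adjusted p = 0.314, 0 of 4 at an unadjusted p under 0.05). Fabp4 stood at 19.3 on TCE array 2 and at 0.633 to 0.869 on the other TCE arrays, whose Pparg ratios were 4.73, 5.40 and 8.08. The mean log2 ratio of the 4 was -0.24 to 0.22 on repeated-dose oil arrays and -0.30 to 1.14 on TCE arrays, and since no level was given it cannot be said whether any was near 0. Their part in the Pparg change was not tested.

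In mice Pparg was higher on TCE arrays but spread widely. Its single-dose ratios were 0.485, 1.03, 0.972 and 1.39 with oil and 1.99, 1.496, 1.488 and 2.65 with TCE, groups that did not overlap. With a within-group SD of 1.09 over all groups the change was 1.03 ± 0.71 (interval -0.49 to 2.55, adjusted p = 0.412). After repeated doses the ratios were 2.73, 0.214, 0.509 and 1.49 with oil and 3.21, 0.542, 1.93 and 3.26 with TCE (1.16 ± 0.71, adjusted p = 0.317). The mouse effect minus the rat effect was 1.99 ± 0.92 after a single dose (interval 0.11 to 3.88, adjusted p = 0.206) and -1.19 ± 0.92 after repeated doses (adjusted p = 0.427).

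PPAR gamma targets showed 1 or no call each way in each comparison. Of 14 listed, 12 were measured in mice, of which 8.33% and 0% were called on the 2 schedules where 9.31% and 11.8% of all genes were. In rats 10 were measured, and 1 and 2 genes (10% and 20%) were called where 1.69% and 2.96% of all genes were. In single-dose mice Cidec, a lipid droplet protein, rose by 1.92 ± 0.53 (TCE ratios 1.53 to 8.26, adjusted p = 0.0403), and in repeated-dose mice none passed (smallest limma adjusted p = 0.076, 2 of 12 at an unadjusted p under 0.05). In repeated-dose rats, where Pparg was called, Cd36, a fatty acid transporter that is also on the PPAR alpha list, rose by 2.76 ± 0.54 (TCE ratios 1.99 to 16.4, overlapping oil, adjusted p = 0.0145). Pck1, the entry enzyme of gluconeogenesis, fell in rats by 1.40 ± 0.33 (adjusted p = 0.048) and 1.61 ± 0.33 (adjusted p = 0.0185). In mice 9 of 12 list genes were below 0 on each schedule, with medians of -0.37 and -0.33 against -0.08 and -0.16 for all genes. The rat list medians were -0.21 and 0.03 against 0.12 and 0.04 for all genes.

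Ppard, the broadly expressed member of the PPAR family, did not pass on any of its probe sets. In mice the changes were -0.19 ± 0.71 (interval -1.71 to 1.33) and -0.48 ± 0.71 (interval -2.0 to 1.04), intervals wide enough to hold a large change either way. In rats rc_AI230294_at changed by -0.15 ± 0.22 (interval -0.62 to 0.32) and 0.05 ± 0.22 (interval -0.42 to 0.52). The 2 probe sets of the other rat Ppard sequence were lower after repeated doses. U40064_at stood at 0.970, 0.989, 1.05 and 1.01 with oil and 0.909, 0.653, 0.559 and 0.835 with TCE, without overlap (-0.47 ± 0.27, adjusted p = 0.367). U40064_g_at stood at 1.03, 0.969, 1.08 and 0.757 with oil and 0.804, 0.167, 0.124 and 0.650 with TCE (-1.56 ± 0.52, adjusted p = 0.115), TCE arrays 2 and 3 being the low ones. Their r over 16 arrays was 0.69, and with rc_AI230294_at it was 0.46 and 0.15. Of the PPAR delta-linked genes 6 of 7 were measured in mice and 5 in rats and none passed by limma (1 of 6 on each schedule in mice, and 1 and 2 of 5 in rats, at an unadjusted p under 0.05), with medians of 0.23 and 0.28 in mice and 0.15 and 0.44 in rats.

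Other nuclear receptors were called in shares near or below those of all genes. In single-dose mice 2 of 28 fell and none rose (7.14% where 9.31% of all genes were called), Rora by 1.21 ± 0.30 (adjusted p = 0.0254) and Nr1d1 by 0.89 ± 0.20 (adjusted p = 0.0161), both parts of the circadian clock. In repeated-dose mice 1 of 28 fell (3.57% where 11.8% of all genes were called), Nr2f2, the orphan receptor COUP-TFII, by 1.80 ± 0.33 (TCE ratios 0.153 to 0.370, adjusted p = 0.00591). In rats none of 27 passed on either schedule (smallest limma adjusted p = 0.0676 and 0.124, with 10 and 4 of 27 at an unadjusted p under 0.05). The share of all genes at that unadjusted level is not given. The list medians were -0.29 and -0.15 in mice, against -0.08 and -0.16 for all genes, and 0.32 and -0.04 in rats, against 0.12 and 0.04.

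Some markers of liver cell types passed the test in the repeated-dose groups of both species, and none in the single-dose groups. In repeated-dose mice 2 of 8 macrophage markers fell (Csf1r by 0.63 and C1qa by 0.99), with all 8 below 0 and a median of -0.59 against -0.16 for all genes, of which 11.8% were called. In the same mice 1 of 6 endothelial markers fell (Tek by 1.03), 1 of 6 stellate markers rose (Col1a2 by 1.14) and 1 of 6 hepatocyte markers fell (Tat by 0.59). Of the stellate markers 3 were above 0 and 3 below (lowest -0.85, median 0.17). Below 0 were 5 of 6 endothelial markers and all 6 hepatocyte markers. In single-dose mice, where Ppara, Nr1i2 and 1 Rxra probe set were called, none of these markers passed by limma. There 5 of 8 macrophage, 2 of 6 stellate, 2 of 6 endothelial and 1 of 6 hepatocyte markers had an unadjusted limma p under 0.05. The hepatocyte median was -0.20 with all 6 below 0. In repeated-dose rats 1 of 3 endothelial markers fell (Pecam1 by 1.43 ± 0.26, adjusted p = 0.00991), where 2.96% of all genes were called. The other 2 endothelial markers were above 0, and the median of the 3 was 0.01. No hepatocyte, macrophage, stellate or T cell marker passed in these rats. All 4 macrophage markers measured were nonetheless below 0 there, with a median of -0.52 against 0.04 for all genes. In single-dose rats 3 of the 4 were below 0, with a median of -0.76 against 0.12, and none passed. The part of these marker changes in the receptor changes was not tested.

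No receptor differed between schedules or between species at the threshold. The comparison of schedules called 0 of 11 receptor probe sets in mice (smallest limma adjusted p = 0.168, 2 of 11 at an unadjusted p under 0.05, background 0.877%) and 0 of 11 in rats (smallest 0.329, 2 of 11 unadjusted, background 0%). The comparison of species called 0 of 6 receptors after a single dose (smallest 0.206, 1 of 6 unadjusted, background 4.22% of 3055 genes) and 0 of 6 after repeated doses (smallest 0.138, 1 of 6 unadjusted, background 10.5%). The last was Ahr, with a mouse effect minus rat effect of -0.85 ± 0.37 (interval -1.60 to -0.09), represented in rats by AF082125_s_at.

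The genes most like each called receptor, by Pearson r of log2 ratios over the 16 arrays of a species, were as follows. Mouse Ppara was followed most closely by Mxd4 (0.90), Ap3d1 (0.90) and Cd47 (0.89). Nr1i2 was followed by Icos (0.93), Ptprn (0.90) and Trak2 (0.89). Rxra was followed by Pmf1, Agpat1 and Saa4 (0.93 each) on the _g_at probe set and by Tfip11 (0.92), Itih2 (0.91) and Dcaf8 (0.91) on the _at probe set. Rat Pparg was followed by C8h15orf61 (0.95), Slc16a8 (0.92) and Decr1 (0.91), the last a mitochondrial fatty acid oxidation enzyme on the PPAR alpha list that rose by 1.11 in the same rats. These r are the highest of 8249 mouse or 4735 rat genes, and the arrays share treatment and RNA quality.

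**Figure D5:**
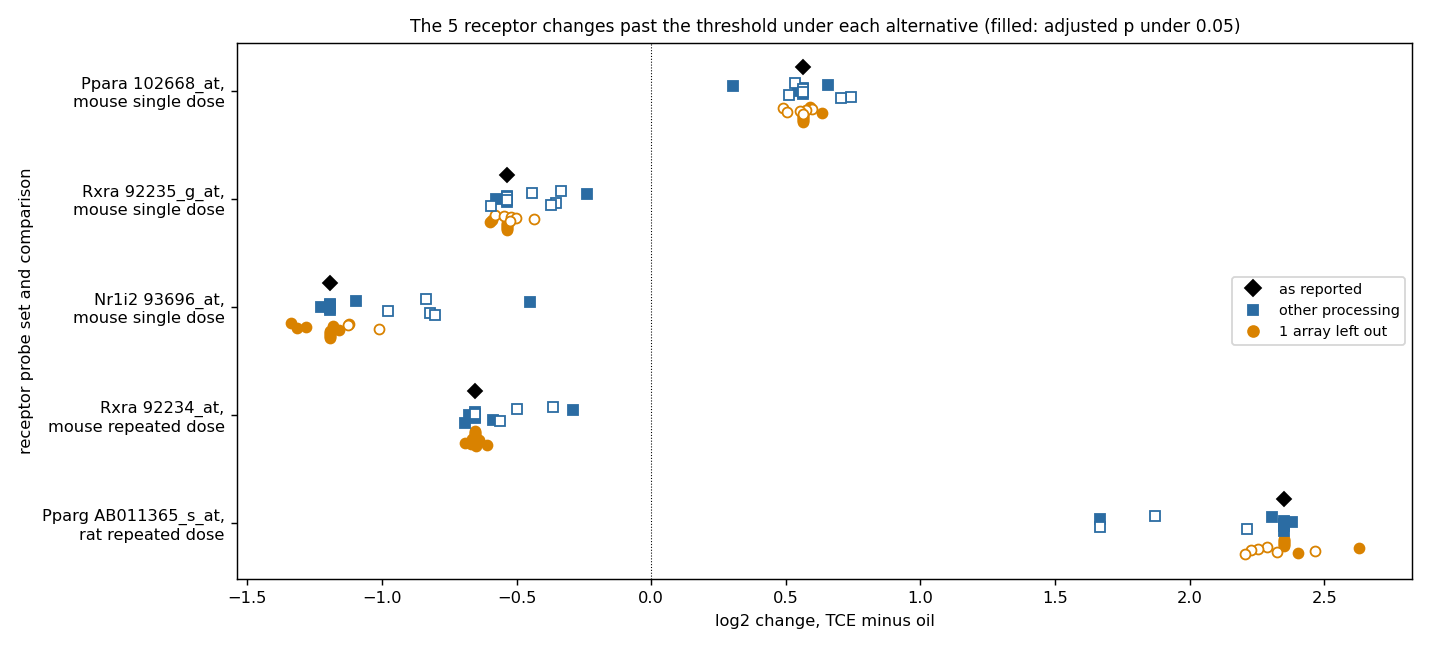
Log2 change, TCE minus oil (x axis), of the 5 called receptor values (rows) as reported (diamond), under other processing (squares, of which log2 of the ratio plus 1 is on a smaller scale) and with 1 array left out (circles), filled at a limma adjusted p under 0.05. Every value keeps its sign, and the call is lost in 4 to 13 alternatives each.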

How the data were processed

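Affymetrix arrays of mouse and rat liver were analysed, 16 per species in 8 groups of 4. Signals came from MAS5, per the submitters' processing notes (version not given in the sources used here). The deposited values are linear ratios: each probe set had a median of 1, within 0.002, over the 4 oil arrays with the same schedule. That was found from the values, and no source used here says how the authors scaled arrays before dividing.

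The deposited ratios were taken as log2 and fitted by limma 3.58.1 under R 4.3.3, using lmFit and eBayes with 4 group means for a species, or all 32 arrays for 3055 genes on both designs. Control probe sets were left out, no floor, filter or pseudocount was used, and p-values were adjusted by Benjamini-Hochberg over all 12422 mouse or 8740 rat probe sets. A listed gene was represented by the probe set whose SD within groups was lowest. The median of that SD over all probe sets was 0.42 in mouse and 0.46 in rat. Genes were named from platform annotation with 1 symbol.

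The receptors and gene lists were chosen with earlier results of these data known. All receptor probe sets are reported. From each list the rule picked up to 4 called genes with the largest changes, or up to 2 where none was called. Not all genes so picked are named in the text, and other list genes were named after their values were seen. The 3 genes most like a called probe set were taken by Pearson r. Dim probe sets could not be filtered, since ratios hold no signal level. The settings varied were array scaling (quantile normalization, or centring on the array median), log2(ratio + 1), omission of the noisiest 40% of probe sets, a fit on only the groups compared, array weights, a replicate block, a trended variance prior, the Gapdh value as a covariate, omission of arrays with a Gapdh value above 1, omission of 5 arrays with a mean log2 ratio of exocrine pancreas markers above 2 (chosen after seeing the data), averaging the probe sets of a gene, and omission of each array in turn. Figures were drawn with matplotlib 3.10.9.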

Additional observations from a re-analysis of the deposited data

Results flagged for a closer look

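Among 88 groups of 4 arrays, 1 for each receptor probe set and group, 3 held an array far from the other 3 by Dixon's criterion, about 1 in 20 being flagged by chance. On mouse repeated-dose TCE array 1 the Nr1i3 probe set ending in _g_at stood at 1.484 where the others stood at 0.903 to 0.957. On mouse repeated-dose oil array 1, which also had a Gapdh value above 1, Nr1h3 stood at 0.683 where the others stood at 0.993 to 1.009. On rat repeated-dose oil array 2 Pparg stood at 2.109 where the others stood at 0.917 to 1.037.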

How the results depend on the processing

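Over 44 receptor changes and 44 settings, 1172 alternative values were computed. Of these 1108 kept their side of the threshold, 44 lost a call, 20 gained one and 0 reversed a call; 71 values of uncalled changes had the other sign. Receptor calls in single-dose mice (3) numbered 0 with quantile normalization, 1 with only the groups compared, 1 with the replicate block, 0 with the Gapdh covariate, 0 without arrays above 1, 0 without arrays with high exocrine pancreas markers, a setting chosen after seeing the data, and 0 to 3 leaving out 1 array (0 without oil array 3). In repeated-dose mice (1) they numbered 0 with quantile normalization, 0 after centring, 4 without the noisiest probe sets, 0 with only the groups compared, 3 with array weights, 2 with the replicate block, 2 with the Gapdh covariate, 0 without arrays above 1 and 1 to 3 leaving out 1 array. In single-dose rats (0) they numbered 1 with array weights, 1 with the Gapdh covariate and 0 to 1 leaving out 1 array. In repeated-dose rats (1) they numbered 0 with quantile normalization, 0 without the noisiest probe sets, 0 with the Gapdh covariate, 0 without arrays above 1 and 0 to 2 leaving out 1 array.

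PPAR alpha target calls in single-dose mice (14) numbered 6 with quantile normalization, 2 without arrays above 1, 6 without arrays with high exocrine pancreas markers and 11 to 14 leaving out 1 array. In repeated-dose mice (12) they numbered 5 with quantile normalization, 7 with only the groups compared, 5 without arrays above 1 and 10 to 13 leaving out 1 array. In single-dose rats (0) they numbered 1 with log2(ratio + 1), 2 without the noisiest genes, 2 with array weights, 2 with the Gapdh covariate and 0 to 1 leaving out 1 array. In repeated-dose rats (13) they numbered 1 with quantile normalization, 8 with only the groups compared, 6 with the Gapdh covariate, 6 without arrays above 1 and 7 to 13 leaving out 1 array. Comparisons of schedules and of species called 0 receptors under all settings. The causes of these shifts were not tested, except that leaving out arrays above 1 leaves 1 TCE array in each mouse schedule, which limma then assumes to vary like the other groups.

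Same-numbered samples did not deviate together (correlations of -0.17 to 0.08 over 16 pairs, 0 above 0.1). With 4 arrays a group a shared day or litter could still go unseen, and no label names one. The replicate block therefore rests on no known pairing. Precision was limited by 4 arrays a group, and signal over background could not be judged from ratios.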
